A study of Mus musculus with 26 samples.

Results

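The 34 genes described here are immediate early genes and heat shock genes that cells switch on within a short time of a stimulus or of stress, including the stress of taking a tissue apart. They were listed by symbol, with earlier results of these data known, and each of the 34 was found once among the 24411 genes of the table. All 34 passed the filter on low counts that left 12227 genes to test. By role they comprise 4 AP-1 and ATF transcription factors (Fos, Fosb, Jun, Atf3), 3 EGR factors (Egr1, Egr2, Egr3), 3 NR4A orphan nuclear receptors (Nr4a1, Nr4a2, Nr4a3) and 6 other early regulators (Ier2, Ier3, Ier5, Btg2, Klf4, Klf6). The others are 5 phosphatases and mRNA decay factors (Dusp1, Dusp2, Dusp5, Zfp36, Zfp36l1), 4 feedback regulators of NF-kB (Nfkbia, Nfkbid, Nfkbiz, Tnfaip3), 6 heat shock genes (Hspa1a, Hspa1b, Hspa8, Hsph1, Hsp90aa1, Dnajb1) and 3 genes of the cell surface and the stress response (Cd69, Ppp1r15a, Gadd45b).

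As background, immediate early genes are transcribed from factors that are already present in the cell, so their mRNA rises without new protein synthesis and usually decays quickly again. In T cells they respond to antigen receptor signalling through ERK, calcium and NF-kB, and EGR and NR4A factors are widely used as readouts of that signal. The same genes, and the heat shock genes driven by heat shock factors, are also known to respond to tissue dissociation, warming and cell sorting.

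The libraries were poly(A) RNA-seq of CD4+ T cells sorted from spleen and lymph nodes of the strain C57BL6/J, with 26 libraries in 13 groups of 2, and no treatment is named. The study compared regulatory T cells (Treg) that lack BATF or carry altered Foxp3 with their controls, and sorted subsets of Treg and conventional T cells with each other. The groups fall into 5 sort sets. The germline set holds WT Treg (CD4+hCD2+, Foxp3-IRES-hCD2), BATFKO Treg (same gate, Foxp3-IRES-hCD2.Batf-/-) and WT Tconv (conventional T cells, CD4+hCD2-). The YFP set holds CD4+YFP+hCD2- Treg of Foxp3-IRES-YFPCre/Foxp3-IRES-hCD2 mice without (WT Treg YFP) or with Batfflox/flox (BATFcKO Treg YFP), so that Cre is expressed with Foxp3. The R397W set holds CD4+hCD2+GFP- Treg whose hCD2 allele is Foxp3WT-IRES-hCD2 (R397W control Treg) or Foxp3R397W-IRES-hCD2 (Foxp3R397W Treg), each over Foxp3-IRES-GFP. The Foxp3KO set uses the same gate, with Foxp3WT-IRES-hCD2 (Foxp3KO control Treg) or Foxp3fs101-IRES-hCD2 (Foxp3KO Treg) over Foxp3-IRES-GFP. The sorted subsets set, of Foxp3-IRES-hCD2 mice, divides cells further by surface markers. Its groups are WT cTreg (CD4+hCD2+CCR7hiCD62LhiCD44lo), WT eTreg (CD4+hCD2+CCR7loCD62Llo), WT Tnaive (CD4+hCD2-CCR7hiCD62LhiCD44lo) and WT Teff (CD4+hCD2-CCR7loCD62Llo). The 18 libraries outside that last set are called bulk libraries below, because no gate on CCR7, CD62L or CD44 is given for them. Sexes, ages and numbers of animals are not given in the labels. Nothing in the labels says that the 2 libraries of a group came from separate animals, so p-values measure the spread between these libraries, which may be technical.

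Library totals ranged from 5615929 to 7300917 reads in the germline, YFP and R397W sets, from 9774025 to 10641332 in the sorted subsets and from 26321134 to 34613707 in the Foxp3KO set. Levels are given as CPM, read counts over library sizes scaled by the trimmed mean of M values (TMM). The sum of 6 CD4 T cell marker genes lay between 3783 and 5404 CPM in all 26 libraries, and the sum of 6 Treg markers was 1570 to 3997 CPM in the Treg libraries, 170 to 194 in WT Tconv, 408 to 592 in WT Teff and 31.7 to 33.1 in WT Tnaive. Foxp3 itself was at 4.07 and 2.57 CPM in WT Tconv, whose cell type label reads Treg but whose title and gate give Tconv. Gate, reporter alleles or sequencing depth, or more than one of these, also differ between most pairs of sets, so a difference between sets cannot be told apart from what else differs between them.

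Promoter sequences of some of the 34 genes are given as context, and no link to the levels below was tested. RefSeq windows of GRCm38.p6, 250 bases that end just before the annotated start, were at hand for 27 of the 34 genes. The windows below are those of the near-identical heat shock pair and of 3 early genes, chosen because each window holds 1 of the motifs searched and overlaps no annotated exon. Capitals mark the motif: GAANNTTC or TTCNNGAA, inverted heat shock units, in Hspa1a (chr17:34972157-34972406, minus strand) and Hspa1b (chr17:34959239-34959488, minus strand). In Fos (chr12:85473640-85473889, plus strand) and Nfkbia (chr12:55492648-55492897, minus strand) they mark a kappa B motif, and in Btg2 (chr1:134079156-134079405, minus strand) the cyclic AMP response element TGACGTCA.
Hspa1a: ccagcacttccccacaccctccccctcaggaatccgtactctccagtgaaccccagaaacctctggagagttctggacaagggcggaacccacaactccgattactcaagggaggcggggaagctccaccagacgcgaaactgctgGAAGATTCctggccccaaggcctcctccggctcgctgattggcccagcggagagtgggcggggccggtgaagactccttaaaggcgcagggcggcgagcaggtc
Hspa1b: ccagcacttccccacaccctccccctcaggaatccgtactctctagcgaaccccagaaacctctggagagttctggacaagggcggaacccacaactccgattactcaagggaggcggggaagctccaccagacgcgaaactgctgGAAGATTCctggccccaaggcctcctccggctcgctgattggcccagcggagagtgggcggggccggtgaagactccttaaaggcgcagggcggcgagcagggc
Fos: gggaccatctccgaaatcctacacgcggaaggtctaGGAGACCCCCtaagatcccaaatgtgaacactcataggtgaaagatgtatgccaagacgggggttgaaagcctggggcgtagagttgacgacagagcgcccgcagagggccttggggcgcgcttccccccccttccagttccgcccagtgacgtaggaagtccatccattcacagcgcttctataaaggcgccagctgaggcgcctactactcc
Nfkbia: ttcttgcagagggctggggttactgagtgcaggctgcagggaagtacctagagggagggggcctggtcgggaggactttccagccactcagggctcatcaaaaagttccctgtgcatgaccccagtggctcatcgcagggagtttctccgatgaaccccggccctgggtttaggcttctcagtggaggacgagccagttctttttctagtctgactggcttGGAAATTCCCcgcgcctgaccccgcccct
Btg2: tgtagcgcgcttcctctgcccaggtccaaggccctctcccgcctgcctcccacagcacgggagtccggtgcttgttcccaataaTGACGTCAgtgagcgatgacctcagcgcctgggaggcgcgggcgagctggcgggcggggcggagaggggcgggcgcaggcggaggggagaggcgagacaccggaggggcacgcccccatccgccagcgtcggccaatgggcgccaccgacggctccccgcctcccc
The Hspa1a and Hspa1b windows differ at 3 of 250 bases. Both strands were searched in all 32851 windows of the table. Inverted heat shock units were in 12.8% of all windows and in those of Jun, Egr2, Nfkbid, Hspa1a, Hspa1b and Hsph1. The kappa B motif was in 3.9% of windows and in those of Fos, Fosb, Ier3, Nfkbia, Nfkbid and Tnfaip3. The cyclic AMP response element was in 1.55% and in those of Btg2, Dusp1, Nfkbid and Ppp1r15a. The AP-1 motif TGACTCA was in 4.46% and in 1 window of Tnfaip3, and the CArG box bound by serum response factor in 1.47% and in windows of Egr2, Dusp5 and Zfp36. These are matches of letters, not measured binding. Motifs further than 250 bases before the start were not looked for, so a gene not named may still have one there.

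Most of these genes differed between sort sets. Together the 34 genes took 0.71% to 2.4% of all reads in the 18 bulk libraries and 0.346% to 0.508% in the 8 sorted subset libraries. In the 8 WT Treg libraries of the 4 bulk groups, 29 of the 34 genes were higher and 2 were lower than in WT cTreg and WT eTreg together (edgeR quasi-likelihood test, adjusted p under 0.05). Over all tested genes the same test called 27.6%, with 14.9% higher and 12.7% lower. The median log2 difference was 1.49 over the 34 genes and -0.01 over all tested genes. For 16 of the 34, every bulk WT Treg library lay above all 4 cTreg and eTreg libraries, as it did for 2.33% of all tested genes. This comparison was added after values had been seen.

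**Figure D1:**
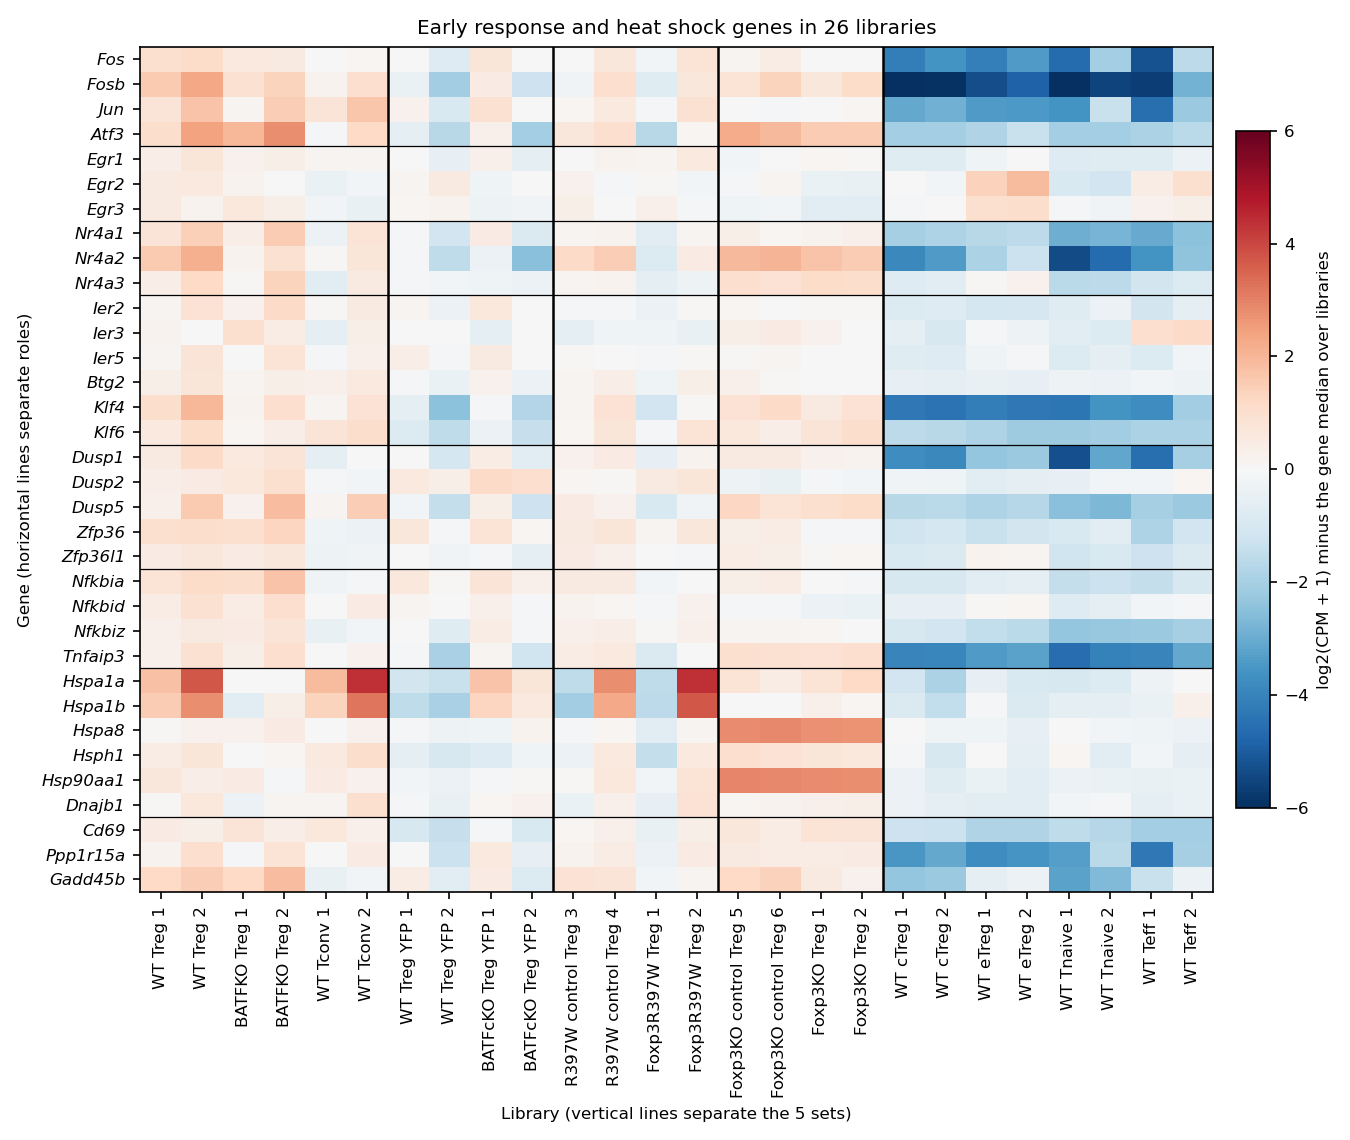
Level of each of the 34 genes (vertical axis, by role) in each of the 26 libraries (horizontal axis, by sort set). Colour is log2(CPM + 1) minus the gene's median over the 26 libraries, and the 8 sorted subset libraries show below-median values for most early genes while the Foxp3KO set stands out for Hspa8 and Hsp90aa1.

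Fos, Fosb and Jun were among the genes with wide gaps. Fos, which pairs with Jun proteins to form AP-1, was at 928 and 1033 CPM in WT Treg, 483 and 278 in WT Treg YFP, 474 and 773 in R397W control Treg and 546 and 656 in Foxp3KO control Treg. In the subsets it was at 25.9 and 38.6 CPM in WT cTreg and 27.0 and 45.0 in WT eTreg, so the ranges did not come near each other. The log2 difference was 4.17 ± 0.60 (standard error, SE; edgeR adjusted p = 7.4e-05). Fosb, a close relative of Fos, ranged from 49.7 to 1077 CPM in the 8 bulk WT Treg libraries and from 2.35 to 6.34 in the 4 subset libraries, a log2 difference of 6.53. Jun ranged from 364 to 2295 CPM against 62.8 to 92.9, a log2 difference of 3.57. Atf3, a stress-induced factor, was at 0.319 to 21.1 CPM in the bulk WT Treg libraries. It had no reads in either WT cTreg library and 0.191 and 0.672 CPM in WT eTreg, so its fitted log2 difference of 6.52 depends on the prior count.

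The other transcription factors did not all follow. Nr4a1, an orphan nuclear receptor induced by antigen receptor signalling, was at 236 to 1436 CPM in bulk WT Treg and at 134 to 181 CPM in cTreg and eTreg, a log2 difference of 2.02 ± 0.30. Nr4a2 ranged from 13.7 to 182 CPM against 1.88 to 16.3, a log2 difference of 4.0, and Nr4a3 from 72.4 to 191 CPM against 47.5 to 98.1, a log2 difference of 0.74. Egr1 was higher by 0.53 on the log2 scale. Its relatives Egr2 and Egr3, which restrain T cell activation, were instead lower than the average of cTreg and eTreg. The log2 differences were -0.52 ± 0.12 (edgeR adjusted p = 0.0028) and -0.37 ± 0.09 (0.0041). Egr2 was at 37.8 to 61.9 CPM in bulk WT Treg, 40.3 and 36.5 in cTreg and 105 and 151 in eTreg. Egr3 was at 41.5 to 72.1, 46.5 and 50.03, and 97.9 and 104 CPM in the same order. Both genes were thus below eTreg in every bulk WT Treg library, while their bulk ranges overlapped the cTreg levels. These 2 genes were also the ones that separated eTreg from cTreg most clearly, as given below. Klf4, a quiescence-associated factor, was at 8.31 to 206 CPM in bulk WT Treg and 1.39 to 1.91 CPM in the subsets, a log2 difference of 5.43. Klf6 differed by 1.97, Ier2 by 1.03, Btg2, an antiproliferative factor, by 0.70, and Ier5 by 0.69. Ier3 stayed at or below 1.72 CPM in all of these libraries, and its log2 difference of 1.52 rests on few reads.

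**Figure D2:**
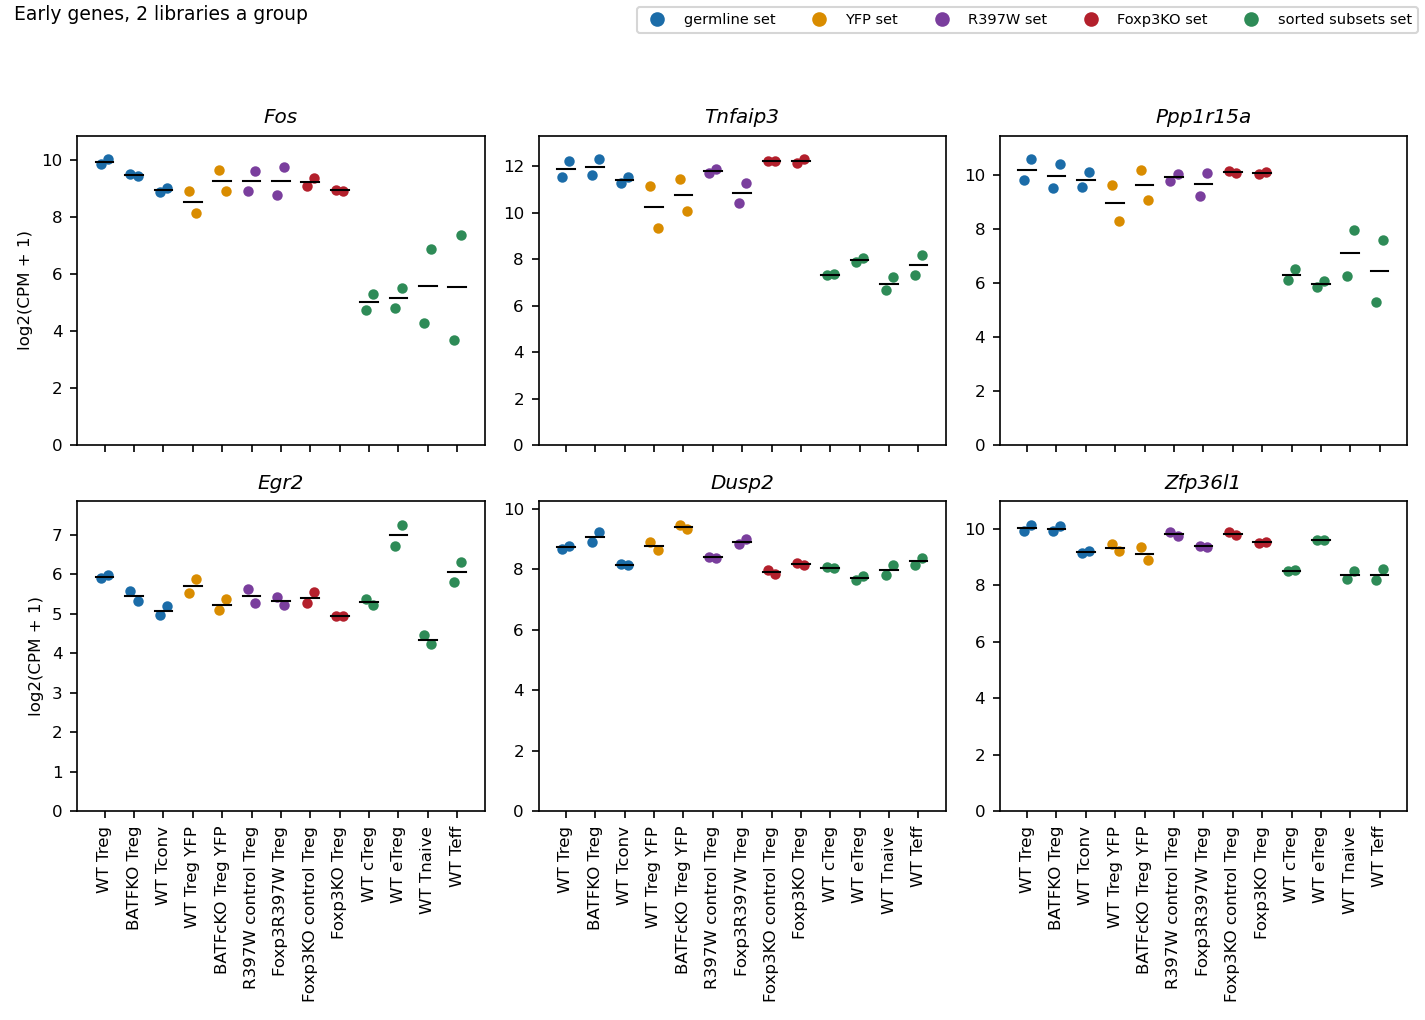
log2(CPM + 1) of 6 early genes (vertical axis) in the 13 groups (horizontal axis). Points are libraries and lines are group means, and Fos, Tnfaip3 and Ppp1r15a drop in the 4 sorted subset groups while Egr2 is highest in WT eTreg.

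Feedback regulators of the same pathways followed the AP-1 genes. Tnfaip3, which encodes the NF-kB inhibitor A20, was at 3000 and 4705 CPM in WT Treg, 2239 and 646 in WT Treg YFP, 3350 and 3730 in R397W control Treg and 4788 and 4692 in Foxp3KO control Treg. WT cTreg had 158 and 164 CPM and WT eTreg 235 and 263 CPM. Even the lowest bulk library, WT Treg YFP 2, was above the highest subset library, and the log2 difference was 3.96 ± 0.35 (edgeR adjusted p = 2.6e-07). The other NF-kB feedback genes differed less: Nfkbiz by 1.45, Nfkbia by 1.37 and Nfkbid by 0.41 on the log2 scale. Among the phosphatases that switch off MAP kinases, Dusp1 differed by 3.39, Dusp5 by 2.20 and Dusp2 by 0.58. The mRNA decay factors Zfp36 and Zfp36l1 differed by 1.77 and 0.69. Ppp1r15a, which encodes the GADD34 subunit that restores translation after stress, was at 319 to 1543 CPM against 57.4 to 90.7, a log2 difference of 3.72. Gadd45b differed by 2.28 and Cd69, the early activation antigen, by 1.55.

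Heat shock genes took a smaller part in the gap. Hsp90aa1 (log2 difference 1.43), Hspa8 (0.96) and Dnajb1 (0.64) were called higher in bulk WT Treg. The stress-inducible Hspa1a (3.08 ± 1.69, edgeR adjusted p = 0.19), Hspa1b (1.34 ± 0.85, 0.27) and Hsph1 (0.57 ± 0.28, 0.15) were not called, and their levels differed widely between bulk libraries. Without the Foxp3KO control group, 26 of the 34 genes were called, 25 higher and 1 lower, beside 2105 of all tested genes. Hspa8 then differed by 0.24 (adjusted p = 0.22) and Egr3 by -0.26 (0.069), and Nr4a3, Ier3 and Dnajb1 were also no longer called. With WT Treg of the germline set alone, which shares its reporter genotype with the subsets, 29 were higher and none was lower. Over all tested genes 1804 were called in that comparison. Egr2 then differed by -0.21 (0.46) and Egr3 by -0.11 (0.62).

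Genes of the same kind outside the 34 moved likewise. Of 45 other early genes listed, 44 were tested, and 34 of these were higher and 2 lower in bulk WT Treg. Of 19 other heat shock genes tested, 9 were higher and none was lower. Summed levels of the 20 listed were 5033 to 5132 CPM in WT Treg and 3821 to 4320 in WT Treg YFP. They were 4568 to 5331 CPM in R397W control Treg and 7106 to 7181 in Foxp3KO control Treg. In cTreg they were 3449 to 3806 CPM and in eTreg 3559 to 3845. Neither list was tested without the Foxp3KO control group. Summed levels of Malat1 and Neat1, nuclear transcripts used here as a sign of RNA quality, were 3367 to 5603 CPM in bulk WT Treg. They were 2968 to 3858 CPM in cTreg and eTreg, and of the 2 transcripts 1 was called higher and 1 lower in bulk WT Treg. Summed myeloid and dendritic markers were 43.2 to 66.6 CPM against 54.0 to 91.8 CPM. The part of either in the gap was not tested. In sorted bulk populations, fewer cells that express a gene and less RNA per cell cannot be told apart.

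Conventional T cells also differed between the germline set and the sorted subsets. WT Tconv against WT Tnaive and WT Teff together gave 29 genes higher and 1 lower of 34, beside 27.5% called over all tested genes, 14.3% higher and 13.3% lower (also added after values had been seen). The median log2 difference was 1.51 over the 34 and -0.04 over all. Whether the difference was larger or smaller than in Treg was not tested. For 28 of the 34 both Tconv libraries lay above all 4 subset libraries, against 13.4% of tested genes. Fosb differed by 5.92 ± 0.73, Nr4a2 by 5.42, Klf4 by 4.18, Tnfaip3 by 4.03 ± 0.40 and Jun by 3.80. Dusp5, Nr4a1, Dusp1, Klf6, Ppp1r15a, Fos and Cd69 differed by between 3.37 and 2.32. Here Hspa1a was called too: it was at 13.1 and 76.6 CPM in Tconv, 0.917 and 1.10 in Tnaive and 2.05 and 2.65 in Teff, a log2 difference of 4.86 ± 1.16 (edgeR adjusted p = 0.0054). Egr3 was the gene called lower (-0.37, 0.05). It was at 44.2 and 36.3 CPM in Tconv, 46.1 and 42.5 in Tnaive and 58.7 and 62.7 in Teff. Egr2, Ier3, Dusp2 and Hspa8 were not called. The calls of Hspa1a and Egr3 were each lost when some library was left out. Leaving out Tconv 2 left 19 of the 34 called, and 18 were called with any 1 library left out. Summed Malat1 and Neat1 were 5101 to 6288 CPM in Tconv and 2703 to 3397 CPM in Tnaive and Teff, with 1 of the 2 called higher, and of 12 myeloid and dendritic markers 1 was higher and 3 were lower. Their part in the difference was not tested. Taking all sets, 12 of the 34 genes had every one of the 18 bulk libraries above every one of the 8 subset libraries, against 0.72% of tested genes. These were Fos, Fosb, Jun, Nr4a1, Klf6, Dusp1, Dusp5, Zfp36, Nfkbia, Nfkbiz, Tnfaip3 and Ppp1r15a.

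The 4 bulk WT Treg groups also differed among themselves. An F test over the 4 groups called 19 of the 34 genes, beside 29.1% of all tested genes. Klf6, Dusp2, Hspa8, Hsp90aa1 and Cd69 were called with any 1 library left out, and without WT Treg YFP 2 the count was 7. That library had the lowest level among the 8 bulk WT Treg libraries for 27 of the 34 genes, among them all of the AP-1, ATF and NR4A genes. How many of all tested genes were lowest there was not counted, so whether this is particular to the 34 was not tested. Klf6 was at 959 and 1358 CPM in WT Treg, 359 and 225 in WT Treg YFP, 685 and 1053 in R397W control Treg and 986 and 852 in Foxp3KO control Treg. Cd69 was at 133 and 98.5 CPM in WT Treg YFP and at 284 to 424 CPM in the other 3 groups. Both genes were thus lowest in both libraries of the YFP set.

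The Foxp3KO set stood apart for Hspa8 and Hsp90aa1. Hspa8, which encodes the constitutive HSC70, was at 2563 and 2640 CPM in Foxp3KO control Treg and 2339 and 2304 CPM in Foxp3KO Treg. In the other 22 libraries it ranged from 226 to 499 CPM, with a median of 336. Hsp90aa1, the inducible HSP90 isoform, was at 614 and 581 CPM in the control and 576 and 555 CPM in Foxp3KO Treg, and at 47.3 to 141 CPM elsewhere. No library of the other sets reached the lowest of these 4, and both genotypes of the set were high. Against the mean of the other 3 WT Treg groups, Hspa8 was higher by 2.90 ± 0.14 (edgeR adjusted p = 8.2e-12) and Hsp90aa1 by 2.69 ± 0.17 (4.9e-10). The count for that comparison was 5 higher and 3 lower of 34, beside 29.8% called over all tested genes, 15.5% higher and 14.2% lower. Atf3 (1.83), Nr4a2 (1.15) and Cd69 (0.76) were the other genes called higher, and Dusp2 (-0.73 ± 0.11), Egr3 (-0.46) and Nfkbid (-0.45) were called lower. Hspa8, Hsp90aa1 and Dusp2 were called with any 1 library left out, and without Foxp3KO control 5 only these 3 were called. Of 19 other heat shock genes tested, 13 were higher. Other lists moved with this set. Of the CD8 and NK markers 5 of 6 tested were higher, with sums of 28.8 to 34.8 CPM in Foxp3KO control Treg against 11.7 to 16.5 CPM in the other 3 groups. Of 12 myeloid and dendritic markers 3 were higher, of 6 Treg markers 1 was higher and 4 were lower, and Malat1 and Neat1 were both lower. Their part in these values was not tested.

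The level of Hspa8 and Hsp90aa1 may depend on how reads from near-identical copies were counted, which was not tested. Of the 50-base stretches of the longest Hspa8 transcript, 73.2% also occur in transcripts of 11 other annotated genes, 70.0% in Gm15459 alone. For Hsp90aa1 the share was 58.5% over 4 genes, for Hspa1a 60.3% and for Hspa1b 62.3%, mostly in each other. The assignment of such reads is not stated in the labels, so these 4 genes are uncertain, and whether it differed between sets was not tested. Hsph1 and Dnajb1, which share none and 0.407% of their stretches, did not pass the test against the other WT Treg groups (0.93, edgeR adjusted p = 0.052, and 0.12). Of 19 other heat shock genes tested there, 13 were higher, and their shared stretches were not counted.

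**Figure D3:**
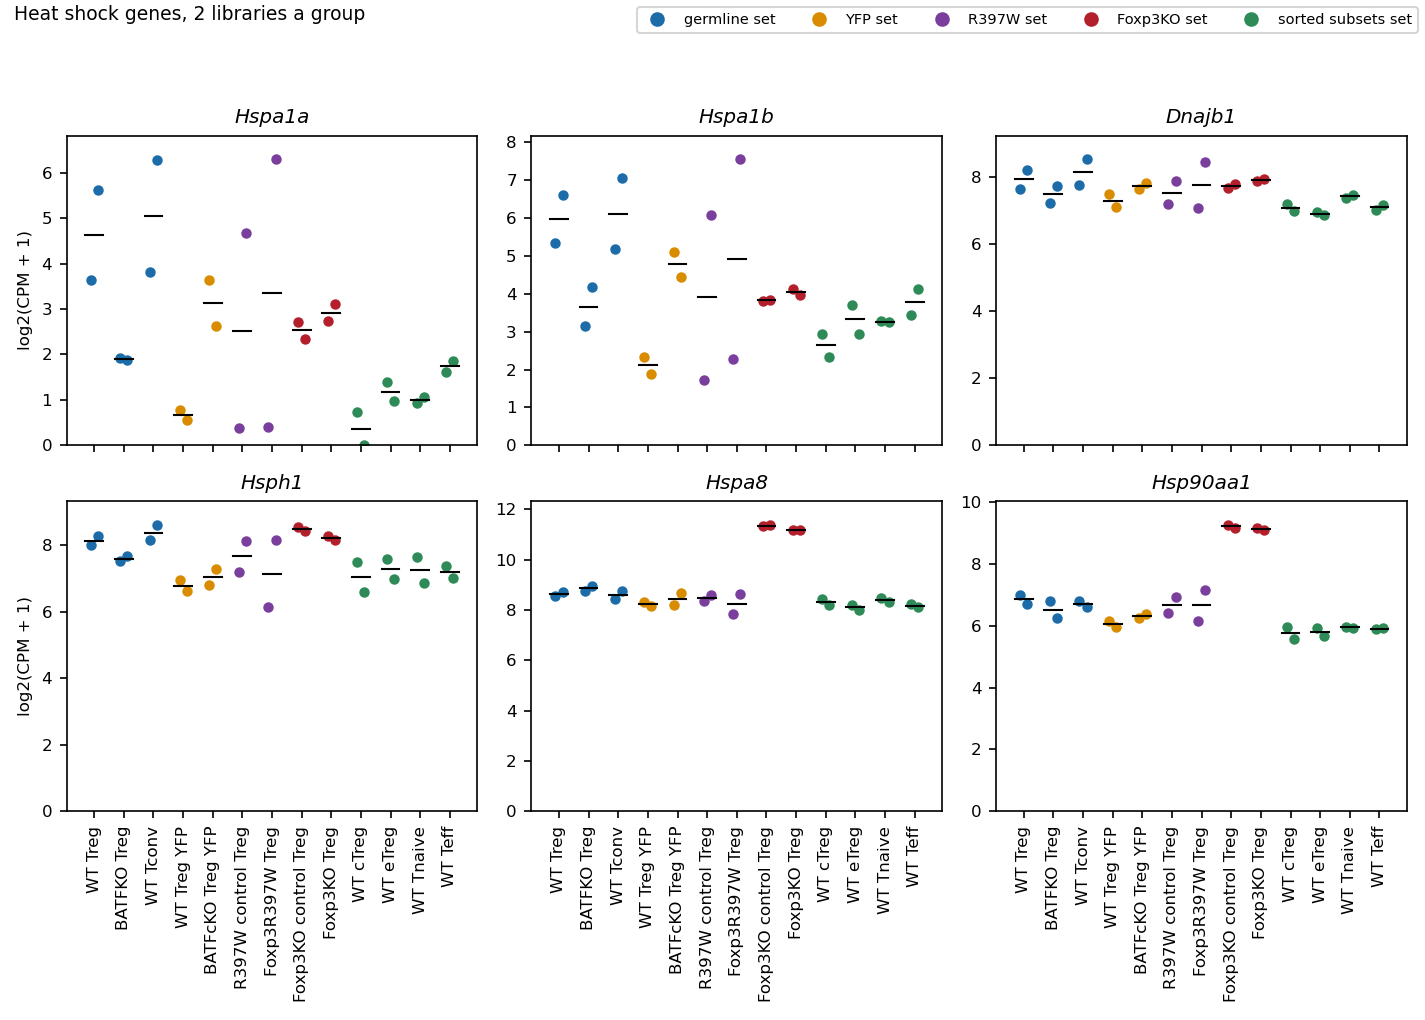
log2(CPM + 1) of the 6 heat shock genes (vertical axis) in the 13 groups (horizontal axis). Points are libraries and lines are group means, and Hspa8 and Hsp90aa1 are high in the 4 Foxp3KO set libraries while the 2 libraries of several bulk groups lie far apart for Hspa1a and Hspa1b.

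Hspa1a and Hspa1b, the stress-inducible HSP70 genes, varied widely within several groups. Hspa1a was at 0.319 and 77.6 CPM in the 2 Foxp3R397W Treg libraries and at 0.306 and 24.4 CPM in the 2 R397W control libraries. Hspa1b was at 3.83 and 186 CPM and at 2.29 and 66.8 CPM in the same libraries. In WT Treg the pair was at 11.6 and 39.2 CPM in library 1 and 47.9 and 96.6 in library 2, and in WT Tconv at 13.1 and 35.02 and at 76.6 and 132. Each high library was thus high for both genes, which share sequence and are not independent measurements. In the sorted subsets Hspa1a stayed at or below 2.65 CPM and Hspa1b at or below 16.4 CPM.

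Libraries with the same number deviated together. In a model with group and library number within each set, library 2 of the germline set was higher than library 1 for 13 of the 34 genes and lower for 1, beside 52.6% of all tested genes, 26% higher and 26.6% lower. The set's libraries thus differed by number across much of the transcriptome, and the count for the early genes is below that share. Their direction was uneven, with a positive log2 difference in 29 of 34 genes. Over all tested genes 6156 had a positive and 6071 a negative difference. Nr4a3 was at 107 and 191 CPM in the WT Treg pair, at 86.2 and 207 in the BATFKO pair and at 53.1 and 120 in the WT Tconv pair, with library 2 above library 1 in all 3 groups. The difference was 1.09 ± 0.07 on the log2 scale (edgeR adjusted p = 1.8e-11). Dusp5 was at 163 and 386, 157 and 472, and 147 and 371 CPM in the same order, a difference of 1.39 ± 0.16. Atf3 (1.18), Jun (1.06), Nr4a1 (0.98), Klf4 (0.82), Ier2 (0.71), Ier5 (0.65), Nr4a2 (0.63), Nfkbid (0.51), Gadd45b (0.44), Nfkbia (0.38) and Nfkbiz (0.24) were also higher in library 2. Egr3 was lower (-0.31), and Fos showed no shared direction (0.07 ± 0.41). Without the filter on low counts, 30 of the 34 were called in this set and 26 in the YFP set. Over all genes those fits called 6448 and 826. Of 44 other early genes tested, 30 were higher and 3 lower.

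The YFP set differed by number in the opposite direction. Library 2 was lower than library 1 for 12 of the 34 genes and higher for none, beside 5.08% of all tested genes, 2.08% lower. Tnfaip3 was at 2239 and 646 CPM in WT Treg YFP and at 2745 and 1078 in BATFcKO Treg YFP, a log2 difference of -1.57 ± 0.27 (edgeR adjusted p = 0.011). Nr4a1 was at 490 and 236 CPM and at 755 and 292 CPM, a difference of -1.21 ± 0.23. Library 1 was thus the higher of the pair in both genotypes, by more than the genotypes differed. Nr4a2 (-1.81), Dusp5 (-1.44), Gadd45b (-1.25), Zfp36 (-0.75), Egr1 (-0.68), Nfkbiz (-0.61), Nfkbia (-0.54), Ier5 (-0.53), Zfp36l1 (-0.37) and Nfkbid (-0.30) were the others. Of the 34 genes 29 had a negative difference, with a median of -0.66. Over all tested genes 5529 had a negative and 6698 a positive difference, with a median of 0.026. Of 44 other early genes tested, 14 were lower and none higher. With any 1 of the 4 libraries left out, only Nfkbiz was called. Number 1 in one set is not related to number 1 in another as far as the labels say, so the opposite directions compare nothing in common.

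**Figure D4:**
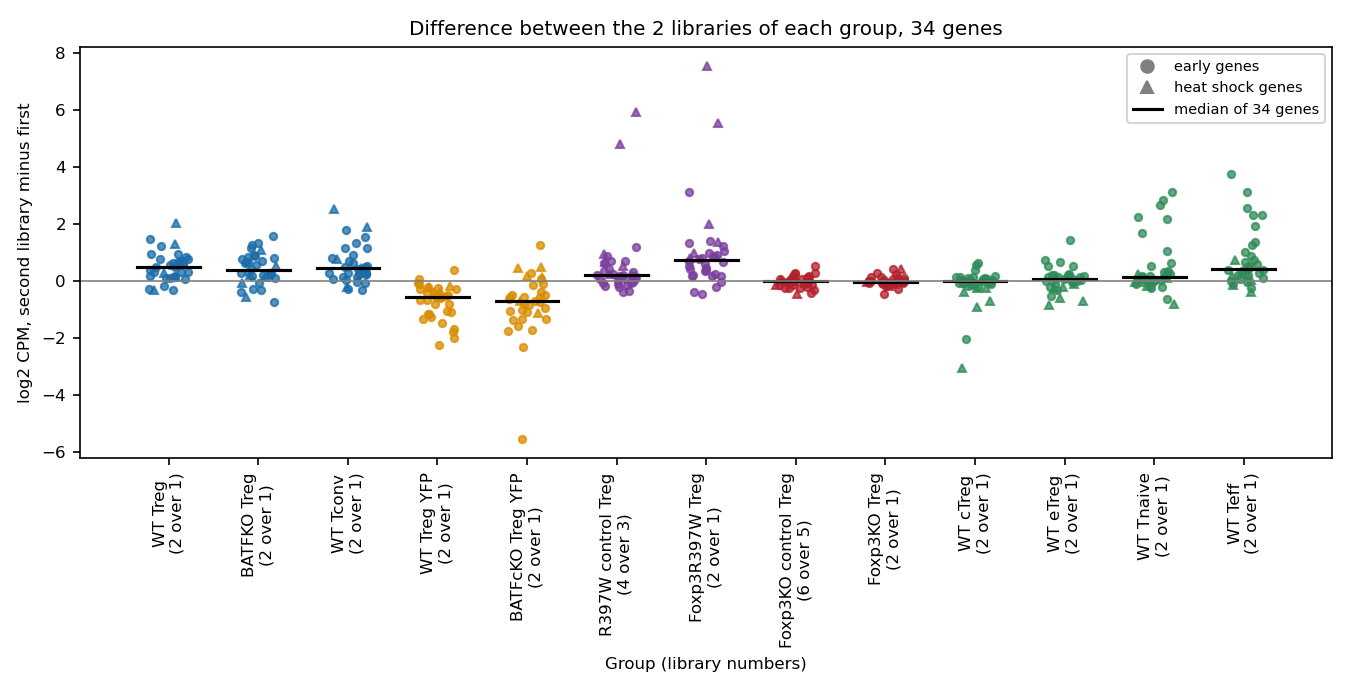
log2 CPM of the second minus the first library (vertical axis) for the 34 genes in each of the 13 groups (horizontal axis). Circles are early genes, triangles are heat shock genes and the line is the median of the 34, which lies at 0.49, 0.38 and 0.45 in the germline groups, at -0.54 and -0.70 in the YFP groups and near 0 in the Foxp3KO set.

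The spread between the 2 libraries of a group was uneven in the other sets too, except in the Foxp3KO set. Between the 2 Foxp3R397W Treg libraries, 10 of the 34 genes differed by more than 2-fold, all higher in library 2, beside 5.9% of all tested genes. Between the 2 R397W control libraries 3 genes did, beside 4.16%. In the Foxp3KO set none of the 34 differed by more than 2-fold within either genotype, beside 0.973% and 1.15% of all tested genes. In the subsets the naive and effector conventional cells were the uneven pairs: 7 genes in WT Tnaive and 9 in WT Teff were over 2-fold higher in library 2, beside 5.18% and 4.68% of all tested genes. Fos was at 18.3 and 117 CPM in Tnaive and at 11.9 and 164 CPM in Teff, and Jun at 57.2 and 274 and at 29.7 and 149 CPM. The 2 cTreg libraries (25.9 and 38.6 CPM of Fos) and the 2 eTreg libraries lay closer together. Over all 4 subset groups, no gene of the 34 was called for library number by edgeR, beside 1.45% of tested genes. At an unadjusted p under 0.05 there were 11, beside 1882 of all tested genes, and DESeq2 called 3, beside 118. Without the filter on low counts edgeR called 20, 18 higher and 2 lower, beside 634 of all genes in that fit.

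In the model of 13 groups over all 26 libraries, no genotype comparison called more than 1 of these genes. With library number within sets added to that model, BATFKO gave 3, 2 higher and 1 lower, beside 1036 of all tested genes. BATFcKO gave 3 there too, 2 higher and 1 lower, beside 1115 of all tested genes. In BATFKO Treg against WT Treg none of the 34 was called by edgeR, beside 2.69% of all tested genes, with 5 at an unadjusted p under 0.05 and none by DESeq2. Batf, the gene removed, was at 7.22 and 6.83 CPM in BATFKO Treg and at 46.1 and 82.9 CPM in WT Treg. Nr4a2 was at 48.1 and 79.0 CPM in BATFKO Treg and at 123 and 182 CPM in WT Treg, with a log2 difference of -1.27 ± 0.52 (edgeR adjusted p = 0.30). Hspa1a was at 2.81 and 2.67 CPM against 11.6 and 47.9 CPM (-3.42 ± 1.48, 0.35).

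In BATFcKO Treg YFP against WT Treg YFP, Dusp2 was the 1 gene called, beside 2.04% of all tested genes called and 0.319% called higher. Dusp2, a phosphatase of ERK and p38 that is induced on activation, was at 706 and 641 CPM in BATFcKO Treg YFP and at 477 and 397.4 CPM in WT Treg YFP. The log2 difference was 0.62 ± 0.13 (edgeR adjusted p = 0.013), and it was no longer called without WT Treg YFP 2 or without either BATFcKO library. The BATFKO and BATFcKO effects were not called as different for any of the 34 genes or any other gene (0%), with 4 of the 34 at an unadjusted p under 0.05. In BATFKO Treg, Dusp2 was at 484 and 608 CPM against 411 and 441 CPM in WT Treg, a difference of 0.36 (0.21).

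Dusp2 was also the 1 gene called in Foxp3R397W Treg against its control, beside 6.13% of all tested genes and 2.18% called higher. It was at 453 and 513 CPM in Foxp3R397W Treg and at 343 and 333 CPM in the control, a log2 difference of 0.51 ± 0.13 (edgeR adjusted p = 0.024). The call was lost without control 3, control 4 or Foxp3R397W Treg 2. Nr4a2 was at 22.7 and 58.0 CPM in Foxp3R397W Treg and at 91.3 and 115 CPM in the control, and was not called (-1.34, 0.19). In Foxp3KO Treg, Egr3 was the 1 gene called, beside 9% of all tested genes and 6.39% called lower. It was at 30.3 and 30.5 CPM in Foxp3KO Treg and at 41.5 and 43.2 CPM in the control, a difference of -0.48 ± 0.14 (0.041), and it was no longer called when any 1 of the 4 libraries was left out. With only these 4 libraries in the fit, 17 of the 34 were called, 4 higher and 13 lower. Over all genes that fit called 4155. Dusp2 was at 296 and 282 CPM against 253 and 228 CPM there. The R397W and Foxp3KO effects were not called as different for any of the 34 genes by edgeR, beside 0.0164% of all genes, and none of the 34 had an unadjusted p under 0.05 for that difference.

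**Figure D5:**
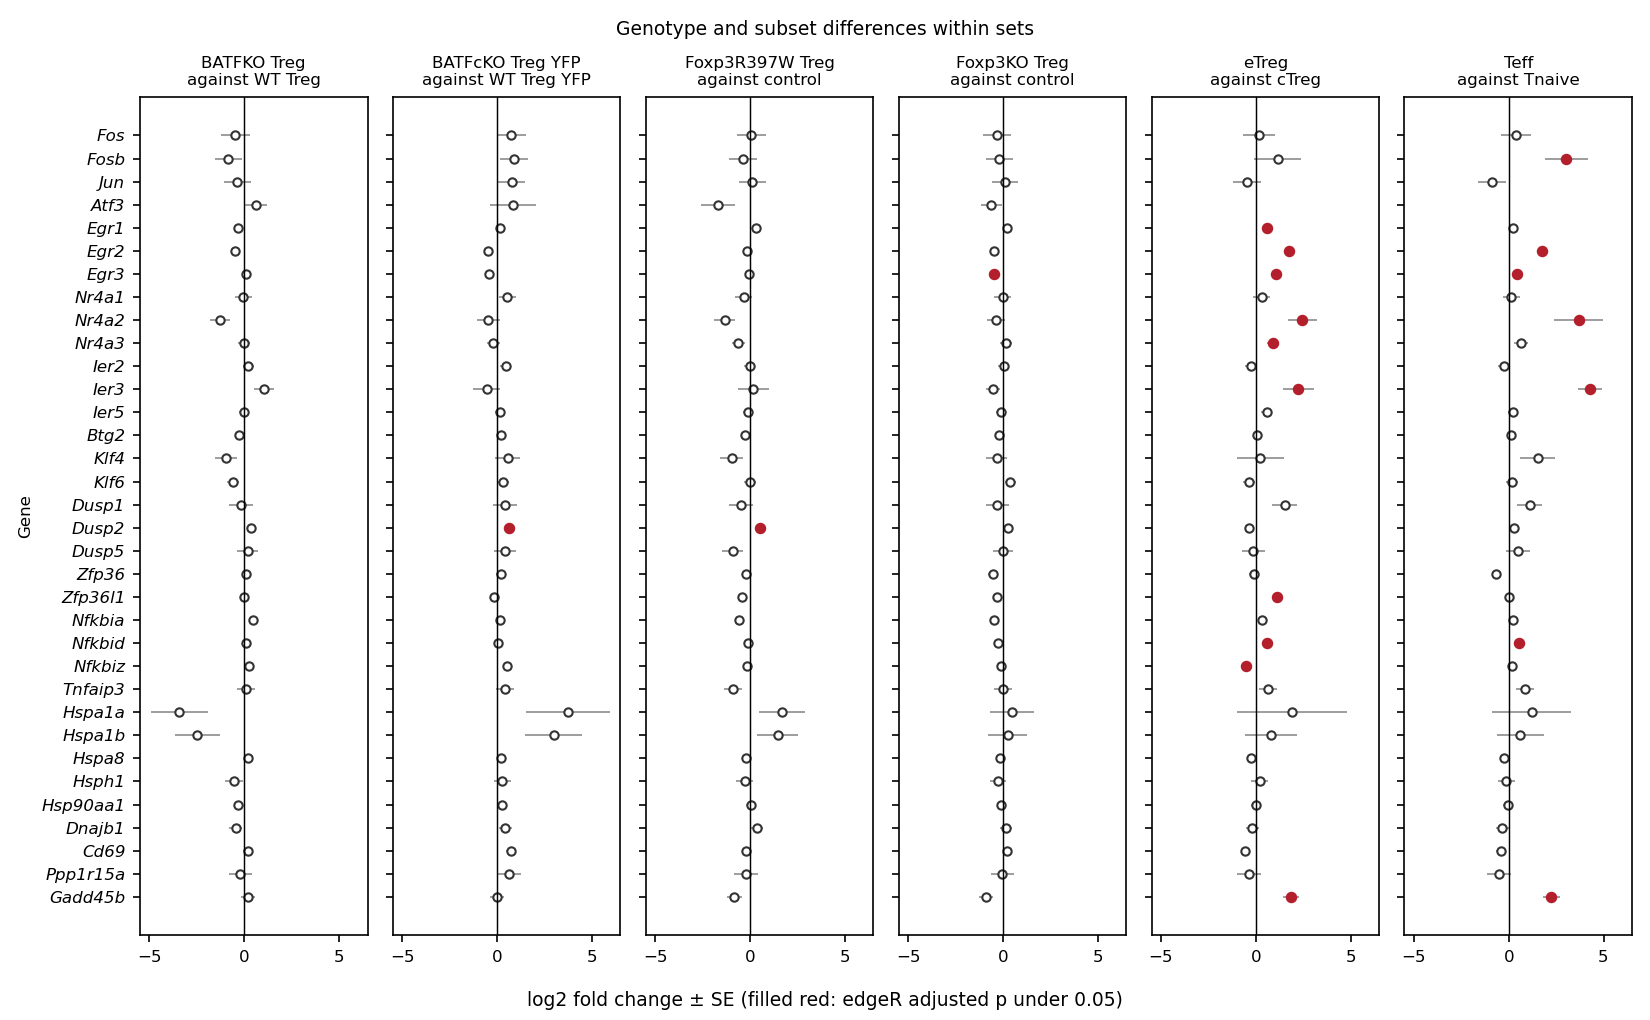
log2 difference and its SE (horizontal axis) for each of the 34 genes (vertical axis) in 6 comparisons, with genes called at an edgeR adjusted p under 0.05 in red. The genotype panels hold at most 1 called gene each and the subset panels 10 and 7, and Atf3 is not drawn where a group had no reads.

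Egr2, Egr3, Nr4a2, Ier3, Nfkbid and Gadd45b were called higher both in eTreg against cTreg and in Teff against Tnaive, and Fos and Jun were called in neither. In WT eTreg against WT cTreg 9 genes were higher and 1 lower, beside 31.1% of all tested genes, 18.8% higher and 12.3% lower, so the share of the 34 was close to that of all genes. With only the libraries of these 2 groups in the fit, 24 of the 34 were called, 16 higher and 8 lower. Over all genes that fit called 5790. Egr2 was at 105 and 151 CPM in eTreg and at 40.3 and 36.5 CPM in cTreg, a log2 difference of 1.74 ± 0.20 (edgeR adjusted p = 1.3e-06). Egr3 was at 97.9 and 104 CPM against 46.5 and 50.03 CPM (1.07 ± 0.15, 1.3e-05). Zfp36l1, which destabilizes AU-rich mRNAs, was at 784 and 781 CPM against 360.2 and 373 CPM (1.09 ± 0.15, 1.8e-05). Gadd45b was at 52.0 and 61.1 CPM against 14.9 and 16.2 CPM (1.86 ± 0.41, 0.0018). These 4 were called with any 1 library left out, when 4 or 5 genes were called in all, and for each both eTreg libraries lay well above both cTreg libraries.

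The other calls in that comparison were less firm. Nr4a2 (2.45, 0.02), Nr4a3 (0.90, 0.049), Egr1 (0.61, 0.04) and Nfkbid (0.58, 0.026) were higher in eTreg, and Nfkbiz was lower (-0.52, 0.044), and each of these calls was lost when some library was left out. Ier3 was also called (2.23, 0.045), on 15 reads in the eTreg libraries and 3 in the cTreg libraries, a ratio of 4.96 with a 95% counting interval of 1.40 to 26.8. Atf3 had 9 reads against 0, a ratio of 2.98 with 3 reads set in place of the 0. That ratio takes the 9 reads as exact, so it is no lower limit, and Atf3 was not called. Fos (0.16 ± 0.83), Jun (-0.45 ± 0.73) and Tnfaip3 (0.63 ± 0.47) were not called. Of 44 other early genes tested, 15 were higher and 6 lower in eTreg. Summed B cell markers were 62.0 to 62.4 CPM in eTreg and 14.2 to 15.7 CPM in cTreg, with 3 of 4 tested higher and 1 lower. Their part in the eTreg values of the 34 genes was not tested.

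WT Teff against WT Tnaive gave 7 genes higher and none lower, beside 35.3% of all tested genes and 21.2% higher. Egr2 was at 55.2 and 78.4 CPM in Teff and at 21.1 and 17.9 CPM in Tnaive, a log2 difference of 1.78 ± 0.21 (edgeR adjusted p = 1.3e-06), close in size to that between eTreg and cTreg. Gadd45b was at 30.3 and 61.0 CPM against 7.54 and 11.7 CPM (2.25 ± 0.44, 0.00045). Ier3 was at 2.93 and 3.38 CPM against 0.204 and 0.0999 CPM (4.28 ± 0.64, 3e-05), from 67 and 3 reads, a ratio of 20.9 with a counting interval of 6.85 to 103.9. These 3 were called with any 1 library left out. Nr4a2 (3.69), Fosb (3.03), Nfkbid (0.54) and Egr3 (0.45) were called with all libraries, and without Tnaive 1 only 3 genes were called. Without Teff 2 there were 3 genes higher and 4 lower. With only the libraries of these 2 groups in the fit, 13 of the 34 were called, 10 higher and 3 lower. Over all genes that fit called 5339. Atf3 had 5 reads in Teff and 0 in Tnaive, a ratio of 1.56 with the same 3 reads in place of the 0. This is no lower limit either, and Atf3 was not called.

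Markers of other cells moved with Teff. Summed myeloid and dendritic markers were 153 to 389 CPM in Teff and 46.9 to 48.3 CPM in Tnaive, with 9 of 12 higher and 1 lower. Summed CD8 and NK markers were 119 to 176 CPM against 29.7 to 30.3 CPM, with 5 of 6 tested higher and 1 lower, and summed B cell markers 68.9 to 76.0 CPM against 7.74 to 8.99 CPM. Among them Klrb1c was at 126 and 84.0 CPM in Teff and at 0 in both Tnaive libraries. Their part in the Teff values of the 34 genes was not tested.

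Egr2 was called higher in Treg than in conventional cells under both pairs of matched CCR7 and CD62L gates. WT cTreg against WT Tnaive gave 2 genes higher and none lower, beside 12.2% of all tested genes and 7.91% higher. Nfkbiz, a nuclear IkB protein, was at 221 and 194 CPM in cTreg and at 83.8 and 88.3 CPM in Tnaive (1.27 ± 0.19, edgeR adjusted p = 8.6e-05). Egr2 differed by 0.98 ± 0.21 (0.0025) and was no longer called without Tnaive 2 (0.055). With only the libraries of these 2 groups in the fit, 14 of the 34 were called, 10 higher and 4 lower. Over all genes that fit called 2866. WT eTreg against WT Teff gave 4 higher and 2 lower, beside 15.5% of all tested genes, 8.21% higher and 7.26% lower. Zfp36l1 (1.23 ± 0.15, 1.2e-05), Nr4a3 (1.16), Egr2 (0.94) and Egr3 (0.73) were higher in eTreg, and Ier3 (-2.12) and Dusp2 (-0.56) were lower. Zfp36l1 and Egr3 were called with any 1 library left out, and 3 genes were called without eTreg 2. Of 44 other early genes tested, 13 were higher and 1 lower in cTreg against Tnaive, and 10 higher and 4 lower in eTreg against Teff. Markers of other cells differed in eTreg against Teff too. Summed myeloid and dendritic markers were 72.2 to 91.8 CPM in eTreg and 153 to 389 CPM in Teff, with 6 of 12 lower and 0 higher. Summed CD8 and NK markers were 16.4 to 18.1 CPM against 119 to 176 CPM, with 5 of 6 tested lower and 0 higher. Their part in the differences of the 34 genes was not tested.

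In the germline set, WT Treg against WT Tconv gave 8 genes higher and none lower, beside 18.7% of all tested genes and 12.1% higher. Zfp36, which encodes tristetraprolin, was at 1058 and 1135 CPM in Treg and at 448 and 430.2 CPM in Tconv, a log2 difference of 1.32 ± 0.26 (edgeR adjusted p = 0.001). Nfkbia, which encodes the NF-kB inhibitor IkB alpha, was at 919 and 1141 CPM against 451 and 504 CPM (1.11 ± 0.21, 0.00082). Zfp36l1 was at 977 and 1119 CPM against 563 and 596 CPM (0.86 ± 0.15, 0.00045). Dusp2 was at 411 and 441 CPM against 287 and 282 CPM (0.58 ± 0.13, 0.0033). These 4 were called with any 1 library left out. Gadd45b (1.65), Egr2 (0.88), Nfkbiz (0.71) and Egr3 (0.69) were higher too, and 5 genes were called without Tconv 1 and 4 with only the libraries of these 2 groups in the fit. Jun, at 1179 and 2295 CPM in Treg and 1180.2 and 2202 CPM in Tconv, followed library number and not cell type. Of 44 other early genes tested, 16 were higher and 1 lower in Treg.

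Whether the step from cTreg to eTreg differs from the step from Tnaive to Teff was tested as a difference of differences. Of the 34 genes only Zfp36l1 was called, beside 5.42% of all tested genes and 1.57% called higher. Zfp36l1 was at 288 and 380.0 CPM in Teff and at 297 and 365 CPM in Tnaive, so the conventional cells showed no step like the one from cTreg to eTreg. The difference was 1.08 ± 0.22 on the log2 scale (edgeR adjusted p = 0.0036), and it was called with any 1 library left out. Egr2 was called in both arms, and its difference of differences was -0.04 ± 0.28 and not called. Of 12 myeloid and dendritic markers 3 were called lower and 0 higher in the same test, and of 6 CD8 and NK markers tested 0 were called. The part of the markers raised in Teff in the Zfp36l1 result was not tested.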

How the data were processed

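The values used were whole-number read counts per gene in 26 libraries, deposited by the authors as a table with 1 column per library. Per the submitters' processing notes, reads were processed with STAR 2.6.1c on mm10. The counting program and its strand setting are not stated there, and per the labels either of a pair of directional library kits was used. In the table, 4 columns matched no sample and were not used. Groups were taken from the labels, by title for WT Tconv.

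The 34 members, the role classes and the other gene lists were chosen with earlier results of these data known. Of 24411 genes, 12184 were removed by edgeR's filterByExpr (12227 remained). Library sizes were scaled by TMM, and 1 quasi-likelihood model of 13 groups was fitted over all 26 libraries (13 residual degrees of freedom, common dispersion 0.0147). A second model added library number within the germline, YFP and sorted subsets sets (10 residual degrees of freedom). A gene was called at a Benjamini-Hochberg adjusted p under 0.05 over all tested genes, and the SE is the log2 difference divided by the square root of F, an approximation. R 4.3.3, edgeR 4.0.16, limma 3.58.1 and DESeq2 1.42.0 were used, and the steps were tested on simulated data. By rule, called members are named with their values, and uncalled members may be named with values. The comparisons of bulk WT Treg and WT Tconv with the sorted subsets, and the count of libraries above all others, were added after values were seen. Alternatives were DESeq2, its size factors in edgeR, no filter, only the libraries of the groups compared, a replicate block, and each library left out in turn. Promoter windows were read from RefSeq (GRCm38.p6), and exons and shared 50-base stretches from GENCODE M21. Counting intervals cover counting error only, and a ratio with 3 reads in place of a 0 takes the higher count as exact.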

Additional observations from a re-analysis of the deposited data

Results flagged for a closer look

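Zfp36l1 was the 1 gene of the 34 whose step from cTreg to eTreg differed from its step from Tnaive to Teff by a test of the difference itself. The difference was 1.08 ± 0.22 on the log2 scale (edgeR adjusted p = 0.0036). Levels were 360.2 and 373 CPM in cTreg, 784 and 781 in eTreg, 297 and 365 in Tnaive, and 288 and 380.0 in Teff. Summed myeloid and dendritic markers were 153 to 389 CPM in Teff and 46.9 to 48.3 CPM in Tnaive, and their part in this result was not tested. No group has more than 2 libraries, so single libraries far from their group could not be looked for by a gap test.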

How the results depend on the processing

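All values here count genes called of 34, beside the count in the report. DESeq2 gave 3 for the difference of differences between subsets and 3 for library number in the subsets (0 by edgeR, which gave 11 at an unadjusted p under 0.05). Without a filter on low counts there were 6 for eTreg against cTreg, 4 for Teff against Tnaive, 2 for their difference of differences, 5 for the Foxp3KO control against the other WT Treg groups, 11 for the 4 WT Treg groups, and 30, 26 and 20 for library number in the germline, YFP and sorted subsets sets. With only the libraries of the groups compared there were 3 for BATFcKO, 5 for R397W, 17 for Foxp3KO (4 higher, 13 lower), 24 for eTreg against cTreg, 13 for Teff against Tnaive, 14 for cTreg against Tnaive and 4 for Treg against Tconv. Over all genes, the fits without a filter called 3628, 4209, 665, 3289, 3090, 6448, 826 and 634 in the order above. The fits of only the groups compared called 358, 1295, 4155, 5790, 5339, 2866 and 548. The cause was not tested.

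The labels do not pair same-numbered libraries. With a replicate block there were 3 for BATFKO (2 higher, 1 lower, beside 1036 of all genes), 3 for BATFcKO, 11 for Teff against Tnaive, 6 for cTreg against Tnaive, 12 for eTreg against Teff, 16 for Treg against Tconv and 4 for the difference of differences. Deviations of same-numbered libraries from their group means correlated over all tested genes at 0.43 to 0.51 in the germline set, 0.2 in the YFP set and 0.067 to 0.21 in the subsets, and over the 34 genes at 0.34 to 0.76, 0.82 and 0.31 to 0.88. No paired analysis was possible for the R397W and Foxp3KO sets because their groups share fewer than 2 numbers.

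With each library left out in turn, counts ran from 0 to 0 for BATFKO and Foxp3KO, 0 to 2 for BATFcKO, 0 to 1 for R397W, 4 to 5 for eTreg against cTreg, 3 to 7 for Teff against Tnaive (3 higher and 4 lower without Teff 2), 1 to 2 for cTreg against Tnaive, 3 to 5 for eTreg against Teff, 5 to 10 for Treg against Tconv and 1 to 2 for the subsets' difference of differences. They ran from 0 to 0 for the other differences of differences, 3 to 9 for the Foxp3KO control, 7 to 19 for the 4 WT Treg groups, 27 to 31 and 19 to 28 for bulk Treg and Tconv against subsets, and 10 to 12, 1 to 1 and 0 to 0 for library number in the germline, YFP and sorted subsets sets. A lone library is then assumed to vary like the other groups. The F test over the 4 WT Treg groups gives a range without direction, so its values are counted below as keeping direction and could not be reversed. Over all alternatives, 1352 of 1637 values of called genes kept their direction and their call, 285 kept the direction only and none was reversed.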
